A study of Mus musculus and synthetic construct with 9 samples.

Results

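The allelic effects of human SNPs were measured in stressed MIN6 cells, a mouse insulinoma line used as a model of pancreatic β cells, with a massively parallel reporter assay (MPRA). An allelic effect is the log2 RNA/plasmid ratio of the sequence with the alternate allele minus that of the sequence with the reference allele, taken within each library of thapsigargin (Tg) treated cells. Of the 6628 SNPs with a reference and an alternate sequence in the standard background, 6180 had a mean of at least 100 plasmid counts for both alleles and are described here. The count tables hold 13628 sequences in all. Cells received 250 nM Tg dissolved in 0.025% DMSO from 6 h after transfection for 24 h and were harvested 30 h after transfection. The comparison group received 0.025% DMSO alone on the same schedule, and both groups were transfected with the same batch of plasmid. Each group had 5 transfections on separate days, and the plasmid batch was sequenced as 5 libraries. The study calls the Tg and DMSO cultures paired, and the sources used here do not say that the library numbers mark the pairs. The Tg libraries held 29968043 to 44899256 counts (median 32315722), the DMSO libraries 28896082 to 33325429 and the plasmid libraries 23009482 to 36129587. The tables hold only barcode counts of the reporter, so neither the identity of the line nor the stress response of its own genes was checked here. The sequences are 200 bp of human DNA on a plasmid in mouse cells, which limits the model to elements that act outside their chromosomal setting.

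Tg blocks the calcium pump of the endoplasmic reticulum (ER) and empties its calcium store, so that proteins misfold and the unfolded protein response sets in. That response acts in part through transcription factors such as ATF4, ATF6, XBP1 and CHOP, and β cells are prone to it because they fold large amounts of proinsulin. In the MPRA, each human sequence stands before a minimal promoter, and the transcripts carry 20 bp barcodes in their 3′ end, so the barcode RNA of a sequence relative to its plasmid gives its activity. A SNP can change this activity when it alters a site that a transcription factor binds.

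The sequences below surround SNPs described in the following paragraphs. They are shown because they hold the base that differs between a more and a less active allele. All are on the plus strand of hg19, the SNP base is in capitals, and positions in a substitution are counted from 1 at the 5′ end with the reference base first. The first 2 SNPs had large effects in Tg, the next had an effect in Tg and no active allele in DMSO, and the rest had smaller effects in both conditions.
rs17748864 at PEX5L, chr3:179649501-179649521, reference: tacagcacagCccaattaact
rs17748864, alternate (C11T): tacagcacagTccaattaact
rs10778949, chr12:83612852-83612876, reference: tttattgacttaAcctggatcggca
rs10778949, alternate (A13G): tttattgacttaGcctggatcggca
rs11075992 in FTO, chr16:53820055-53820078, reference: tcagaggcttgTgtgagaaagttg
rs11075992, alternate (T12C): tcagaggcttgCgtgagaaagttg
rs4630391 at RNF6, chr13:26777814-26777834, reference: gcaggctgggCgcagtggctc
rs4630391, alternate (C11T): gcaggctgggTgcagtggctc
rs12189774 at VEGFA, chr6:43816114-43816137, reference: gtttccctaggaGgcctctcttac
rs12189774, alternate (G13A): gtttccctaggaAgcctctcttac

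Allelic effects passed the test for 373 SNPs in Tg, and most were small. At least 1 active allele, meaning more RNA than plasmid in Tg (edgeR, FDR of 1%, passed by 12.8% of 13413 sequences), was present for 1051 of the 6180 SNPs, and these were tested with limma at an FDR of 10%. The 373 SNPs (35.5% of those tested, against 35.8% of all 1059 pairs tested without the limit of 100 plasmid counts) divided into 178 with the alternate allele higher and 195 with the reference allele higher, where all pairs tested gave 17.3% and 18.5%. The absolute effect of the 373 had a median of 0.28 on the log2 scale, which is 1.21-fold, and quartiles of 0.20 and 0.44. Effects below 0.25 made up 153 of them (41.0%), and effects of 1 or more 26, of which 12 favoured the alternate and 14 the reference allele. The sign was the same in 5 of 5 Tg libraries for 323 of the 373.

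The spread between transfections and the error of the plasmid ratio set the precision of these values. Between Tg libraries, the allelic effects of the 1051 SNPs correlated with Pearson's r of 0.801 to 0.826, across SNPs that are not independent replicates and share 1 plasmid denominator. The SD of an effect over the 5 Tg libraries had a median of 0.51 for SNPs with 100 to 500 plasmid counts for the scarcer allele and of 0.12 for those with 4000 or more. The test treats the plasmid mean as known. With the 5 plasmid libraries as a group of their own in limma, 309 SNPs passed, all among the 373. Effects of 24 of the 373 were under 3 standard errors of the plasmid ratio of the alleles. The test is also restricted to SNPs with an active allele, and when all 6180 were tested, 137 passed, of which 124 were among the 373. With libraries scaled by total counts in place of TMM when activity was called, 148 SNPs had an active allele and 99 of them passed, 82 of which were among the 373. The levels of single alleles over plasmid given below also rest on TMM scaling, which sets where the plasmid level lies. Each sequence was read through its own set of barcodes, and an effect of the barcodes on RNA cannot be told apart from an effect of the SNP.

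At rs17748864 in the PEX5L locus, named for a relative of the peroxisomal import receptor PEX5, the alternate T allele gave the largest effect in its direction. Its alternate minus reference log2 ratio was 3.54, 3.43, 3.58, 3.48 and 3.41 in Tg replicates 1 to 5, a mean of 3.49 ± 0.07 (SD, n = 5), or 11.2-fold (limma adjusted p = 6.66e-09). The 5 values lay close together. The level of the T allele over plasmid was 3.31 ± 0.05 and that of the C allele -0.18 ± 0.07 on the log2 scale. By TMM scaling, the C allele thus had no more RNA than plasmid. In DMSO the effect was 3.38 ± 0.14 (SD, n = 5), and the Tg minus DMSO difference did not pass (adjusted p = 0.575).

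WFS1 encodes wolframin, a membrane protein of the ER whose loss causes Wolfram syndrome with diabetes. At rs13130845 (chromosome 4, position 6297646 of hg19) in the WFS1 locus, the C allele exceeded the A allele by 2.55, 2.34, 2.38, 2.64 and 2.41 in the 5 Tg libraries, a mean of 2.47 ± 0.13 (SD, n = 5, limma adjusted p = 1.51e-07). Every library was above 2 and the C allele alone was active, with a level of 2.46 ± 0.13 against -0.01 ± 0.13 for the A allele. In DMSO the effect was 2.40 ± 0.19, and the groups overlapped. Of 16 SNPs given to the WFS1 locus, 3 had an active allele in Tg and 2 of them passed. The other was rs4689398 (position 6302199), whose T allele exceeded its C allele by 0.36 ± 0.14 (SD, n = 5, adjusted p = 0.00418). The element of rs4688986 (position 6285797) was strongly active with either allele, at log2 levels of 5.38 and 5.37, and its effect of -0.01 ± 0.03 did not pass (adjusted p = 0.890). The remaining 13 had no active allele in Tg.

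Several other SNPs with a higher alternate allele had effects of comparable size. At rs10778949 (chromosome 12, position 83612864) the G allele exceeded the A allele by 2.96, 3.00, 3.14, 3.32 and 2.81, a mean of 3.05 ± 0.19 (SD, n = 5, limma adjusted p = 1.77e-07). Here too the reference allele was near the plasmid level, at -0.03 ± 0.12, in each library far below the alternate allele at 3.02 ± 0.10. At rs76846759 (chromosome 3, position 123158794), in the locus of the adenylyl cyclase ADCY5, the T allele was higher by 1.75, 1.71, 1.92, 1.92 and 1.89. These gave a mean of 1.84 ± 0.10 (SD, n = 5, adjusted p = 3.29e-07), with the C allele at 0.00 ± 0.06.

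A further alternate allele with a large effect was that of rs72697237 in an intron of the receptor gene NOTCH2 (chromosome 1, position 120473425), at 1.36 ± 0.08 (SD, n = 5). The NOTCH2 element differed from most of this group in being strongly active with both alleles, at log2 levels of 5.56 for A and 6.92 for T. The element of rs34700788 did likewise, with levels of 5.22 and 6.60 and an effect of 1.38 ± 0.07. At rs6816071 (chromosome 4, position 122665185), in the locus of TMEM155 and the phospholipid-binding annexin gene ANXA5, the A allele was higher by 1.09 ± 0.28. Effects of 1.36 to 1.78 were measured at rs3115025, rs12604172 and rs2049286, for which no position is given in the tables used. The 12 largest effects in this direction were chosen among SNPs with the same sign in 5 of 5 Tg libraries. All 12 passed with the plasmid libraries as a group (highest limma adjusted p = 2.18e-05), 7 are on the study's T2D list and 1 on its caQTL list. The caQTL list holds SNPs whose alleles go with chromatin accessibility in human islets. The study drew up both lists from allelic effects in any of its conditions, these libraries and those of standard culture included.

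The largest effect in Tg favoured a reference allele, at rs2215383 (chromosome 7, position 15062983) between DGKB, a diacylglycerol kinase gene, and AGMO, which encodes an ether lipid enzyme. The alternate C minus reference T effect was -4.34, -4.50, -4.39, -4.74 and -4.70 in the 5 Tg libraries. The mean was -4.53 ± 0.18 (SD, n = 5), or 23.2-fold (limma adjusted p = 1.46e-08). The T allele stood at 4.22 ± 0.11 over plasmid and the C allele at -0.31 ± 0.17. The second largest, rs10073782, had -2.43 ± 0.84 (SD, n = 5, adjusted p = 0.000644), with libraries from -3.61 to -1.47 and 108 plasmid counts for its alternate allele.

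Among the other reference alleles of this group, that of rs10840079 (chromosome 11, position 8605775), in an intron of the kinase gene STK33, exceeded the alternate allele in every Tg library, with an effect of -1.72 ± 0.25 (SD, n = 5). At rs270661 (chromosome 5, position 158560154), between a noncoding RNA gene and RNF145, a ubiquitin ligase gene, it was -1.42 ± 0.12. At rs10933640 (chromosome 2, position 241813782), in an intron of AGXT, which encodes a peroxisomal aminotransferase, it was -1.36 ± 0.15. In each of these the alternate allele lay within 0.25 of the plasmid level while the reference allele lay above 1. At rs2636937 (chromosome 3, position 197355908), beside RUBCN, a gene of an autophagy regulator, the effect was -1.17 ± 0.17. The remaining 6, rs3746886, rs3934674, rs9452650, rs3773980, rs17724172 and rs10845893, had effects of -1.56 to -1.03 and no position in the tables used. All 12, chosen by the same rule on the sign, passed with the plasmid libraries as a group (highest adjusted p = 9.76e-05), 7 are on the caQTL list and 1 on the T2D list. All 12 and the 12 with a higher alternate allele also passed in DMSO. A further SNP with an effect beyond 1, rs8093302, averaged -1.21 ± 0.72 but lay at 0.04 in 1 library, so it falls outside the rule for these groups and was chosen after its values were seen.

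Typical effects were much smaller than these. At rs2145245, near the median, the effect was -0.23, -0.35, -0.25, -0.27 and -0.28 in the 5 Tg libraries, a mean of -0.28 ± 0.05 (SD, n = 5, limma adjusted p = 0.00227). At rs10751704, in the 3′ untranslated region of the matrix metalloproteinase gene MMP17, the mean was 0.28 ± 0.18 with libraries from 0.05 to 0.48 (adjusted p = 0.0253). At rs28446029 it was -0.27 ± 0.30, and 1 library had the opposite sign (adjusted p = 0.0991, and 0.137 with the plasmid libraries as a group). SNPs of this size therefore ranged from a tight set of libraries to a spread as large as the effect. At the limit of 100 plasmid counts, the members just inside, rs496238 and rs223829, had effects of 0.23 ± 1.54 and -0.28 ± 0.94, and the pairs just outside, rs7649799 and rs1319467, had 0.65 ± 0.48 and 0.45 ± 0.53. None of these 4 had an active allele in Tg.

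At RNF6, a ubiquitin ligase gene, rs4630391 (chromosome 13, position 26777824) favoured the C allele evenly. The T minus C effect was -0.44, -0.49, -0.47, -0.45 and -0.43 in the 5 Tg libraries, a mean of -0.45 ± 0.02 (SD, n = 5, limma adjusted p = 0.000137). Both alleles were strongly active, at log2 levels of 5.14 ± 0.15 and 4.69 ± 0.15, and the effect in DMSO was -0.49 ± 0.01. The neighbouring candidates rs34584161 and rs10507349 had no active allele in Tg and effects of -0.07 ± 0.24 and 0.05 ± 0.17. At LARP6, which encodes an RNA-binding protein, the G allele of rs113350503 (chromosome 15, position 71111437) was higher by 0.10, 0.23, 0.15, 0.21 and 0.42, a mean of 0.22 ± 0.12 (SD, n = 5, adjusted p = 0.0235, and 0.0609 with the plasmid libraries as a group). The other SNP of that signal, rs11630895 (position 71113738), had no active allele in Tg and an effect of -0.12 ± 0.09, against -0.22 ± 0.05 in DMSO. The Tg minus DMSO difference did not pass (limma adjusted p = 0.449).

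The loci VEGFA and IRS1 gave effects below the median size. At VEGFA, the gene of a vascular growth factor, the G allele of rs12189774 (chromosome 6, position 43816126) was the higher, with an A minus G effect of -0.15, -0.26, -0.16, -0.22 and -0.19, a mean of -0.19 ± 0.05 (SD, n = 5, limma adjusted p = 0.0113). In DMSO the effect was -0.16 ± 0.04 (SD, n = 5, limma adjusted p = 0.00898). The Tg minus DMSO difference did not pass (limma adjusted p = 0.842). The levels in Tg were low, at 0.35 for G and 0.16 for A. The A allele was lower in Tg than in DMSO, with a log2 fold change of -0.23 (edgeR adjusted p = 0.00117). The G allele, at -0.20, did not pass the FDR of 1% (edgeR adjusted p = 0.0138). At IRS1, the gene of a main substrate of the insulin receptor, the G allele of rs2943656 (chromosome 2, position 227121918) was higher by 0.17, 0.24, 0.11, 0.22 and 0.30, a mean of 0.21 ± 0.07 (SD, n = 5, adjusted p = 0.0114). Both SNPs had the same sign in 5 of 5 libraries, and each passed with the plasmid libraries as a group (adjusted p = 0.0374 and 0.0331).

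Some SNPs of well-known loci did not pass in Tg. At SLC30A8, the gene of the zinc transporter of insulin granules, rs3802177 (chromosome 8, position 118185025) had -0.16 ± 0.15 (SD, n = 5, limma adjusted p = 0.110), against -0.34 ± 0.15 in DMSO. The Tg minus DMSO difference did not pass (limma adjusted p = 0.363). All 5 Tg libraries were negative, from -0.35 to -0.02. At ARAP1, rs11603349 (chromosome 11, position 72460694) had 0.07 ± 0.06 (adjusted p = 0.276) in an element active at log2 levels of 4.05 and 4.11. At the SLC35D3 signal on chromosome 6, rs6937795 (position 137291281) had -0.04 ± 0.08 (adjusted p = 0.548). With a neighbouring SNP at its other allele, the same contrast was -0.02 ± 0.13. Further SNPs of that signal, rs947734 (position 137295951) and rs947735 (position 137295908), did pass. Their effects were 0.23 ± 0.21 and 0.16 ± 0.13 (limma adjusted p = 0.0768 and 0.0710). Neither passed with the plasmid libraries as a group (0.107 and 0.148), each had 1 library of the opposite sign, and their elements share sequence.

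No allele was active in Tg, so no test was made, for rs7903146 at TCF7L2, rs1635852 at JAZF1, rs10428126 at IGF2BP2, rs10811661 and rs10811660 beside CDKN2B-AS1, rs4846567, and rs2879813 at TP53INP1. TCF7L2 encodes a transcription factor of the Wnt pathway. Its rs7903146 had an effect of -0.00 ± 0.11 (SD, n = 5) in Tg and 0.13 ± 0.08 in DMSO, where it passed (limma adjusted p = 0.0418). The Tg minus DMSO difference did not pass (limma adjusted p = 0.386). In DMSO effects also passed for rs1635852 (0.0400), rs10428126 (0.00904), rs10811661 (0.0275), rs10811660 (0.000458) and rs4846567 (0.0517), while rs2879813 had no active allele there either. The effects of the others in Tg ran from -0.22 ± 0.27 at rs10428126 to 0.23 ± 0.16 at rs10811661. For rs1635852, rs10428126, rs10811661 and rs4846567 the difference did not pass either (limma adjusted p = 0.345 to 0.976). At rs10811660 the effect was -0.11 ± 0.11 in Tg and -0.38 ± 0.10 in DMSO (limma test of the difference, adjusted p = 0.0807, past the threshold, and 0.128 with the replicate number as a block), and the level of its reference G allele was 0.06 in Tg and 0.38 in DMSO.

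In DMSO, 665 of 1554 SNPs with an active allele passed, where all pairs tested gave 43.0%. The DMSO and Tg ratios share their plasmid libraries, so only the test of the Tg minus DMSO difference, in which plasmid cancels, sets the conditions against each other. Of the 373 SNPs that passed in Tg, 259 passed in DMSO and 114 did not, of which 43 had no active allele there. The difference itself passed for 64 of 1655 SNPs with an active allele in Tg or DMSO (3.83% of all 1670 pairs tested). Among these 64, 32 had passed in Tg, with the effect larger in Tg for 18 and larger in DMSO for 14, while 10 were tested in Tg without passing and 22 had no active allele in Tg. Of the 114 SNPs that passed in Tg and not in DMSO, 10 passed the test of the difference. The count of 64 fell to 10 with the replicate number as a block, to 9 when all SNPs were tested, and to 36, 18, 30, 27 and 20 without DMSO replicates 1 to 5. It fell to 41 and 40 without Tg replicates 3 and 4.

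FTO encodes an RNA demethylase, and its introns hold the variants most strongly tied to body weight. At rs11075992 (chromosome 16, position 53820066), in such an intron, the C allele exceeded the T allele by 0.73, 0.58, 0.50, 0.45 and 0.76 in the 5 Tg libraries, while the 5 DMSO libraries gave -0.07, 0.08, 0.04, -0.01 and 0.04. The lowest Tg library was well above the highest DMSO library. The mean was 0.61 ± 0.14 in Tg (SD, n = 5, limma adjusted p = 0.000257) and 0.02 ± 0.06 in DMSO, with no active allele in DMSO, and the difference of 0.59 passed (adjusted p = 0.00170). The element was higher in Tg with the C allele, with an edgeR log2 fold change of 0.57 over DMSO (adjusted p = 7.17e-13). With the T allele it was -0.02 (adjusted p = 0.904). This SNP was named for the small p of its difference, which is the change of the C allele minus that of the T allele. The fold changes restate that difference from the same libraries. The base change, T12C in the sequence above, places a CG at the SNP on the alternate allele. Sequences higher in Tg than in DMSO made up 2.04% of the 13413 tested and lower ones 4.17%.

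Among the SNPs that passed in Tg and not in DMSO, the 6 with the smallest p of the difference are described here. At 4 of them, the element was higher in Tg with the reference allele while the alternate allele did not pass. The difference is the change of the alternate allele minus that of the reference allele, from the same libraries. Unlike changes of the alleles, and groups without overlap, thus follow in part from how the 6 were picked and are not further evidence. At rs72775940 (chromosome 10, position 11924217), the alternate minus reference effect was -0.67, -0.56, -0.25, -0.36 and -0.71 in Tg and 0.09, 0.06, 0.21, -0.00 and 0.07 in DMSO. The groups did not overlap, and the difference of -0.59 passed (limma adjusted p = 0.00887). Its T allele was higher in Tg by an edgeR log2 fold change of 0.67 (adjusted p = 7.87e-10), and its C allele by 0.07 (adjusted p = 0.542). At rs2268791 (chromosome 2, position 202022527), in an intron of CFLAR, which encodes the caspase-8 inhibitor c-FLIP, the effect was -0.97, -0.55, -0.44, -0.47 and -0.48 in Tg and between -0.30 and 0.05 in DMSO. The groups did not overlap here either, although Tg replicate 1 stood apart from the rest. The difference was -0.53 (adjusted p = 0.0374), and it missed the threshold in 1 of the 10 fits that left out a library (highest adjusted p = 0.111). The G allele was higher in Tg by 0.56 (edgeR adjusted p = 8.26e-11) and the C allele by 0.03 (adjusted p = 0.867).

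At rs11832983 (chromosome 12, position 39622691), between the copine gene CPNE8 and the kinesin gene KIF21A, both alleles were higher in Tg, the reference more so. Their log2 fold changes over DMSO were 0.99 for C and 0.64 for G (edgeR adjusted p = 2.45e-18 and 1.72e-14). The allelic effect was -0.56, -0.40, -0.28, -0.34 and -0.29 in Tg and -0.10 to 0.05 in DMSO, again without overlap, and the difference was -0.35 (limma adjusted p = 0.0298). For rs9694326 the effect was -0.43 ± 0.07 in Tg and -0.13 ± 0.11 in DMSO (SD, n = 5 each, adjusted p of the difference = 0.0509). Its sequences with a neighbouring SNP at the other allele, which carry other barcodes, gave -0.57 ± 0.16 in Tg. Its reference allele was higher in Tg by 0.35 (edgeR adjusted p = 0.00726) and its alternate allele by 0.04 (adjusted p = 0.896). For rs7974293 the effects were -0.14 ± 0.05 and 0.09 ± 0.06 (adjusted p = 0.0555), and the alleles were higher in Tg by 0.33 for the reference (edgeR adjusted p = 0.000131) and 0.10 for the alternate (adjusted p = 0.375). With the replicate number as a block, the difference passed for rs11075992 and rs72775940 (adjusted p = 0.0376 each) and not for rs11832983, rs2268791, rs9694326 and rs7974293 (0.105 to 0.132).

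By activity class, the SNPs tested in Tg included 608 with both alleles active, 221 with the reference allele alone and 222 with the alternate allele alone. Effects passed for 134, 121 and 118 of these (22.0%, 54.8% and 53.2%, against 35.5% of all members tested). In the classes with 1 active allele, every effect that passed favoured that allele, a direction that the choice of class fixes. The classes rest on the same Tg and plasmid counts as the effects, so the shares, too, are set in part by that choice. Where both alleles were active, 60 favoured the alternate and 74 the reference allele, and the median absolute effect of those that passed was 0.25, against 0.28 over all 373. By the level of the higher allele, effects passed for 199 of 662 SNPs with a log2 RNA/plasmid ratio up to 0.5 (30.1%) and for 27 of 40 above 4 (67.5%). That level is itself part of the effect, so a large effect can raise it, and these shares are set in part by the split.

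Elements whose activity was higher in Tg than in DMSO for at least 1 allele held 162 of the SNPs tested, and 73 of these had allelic effects (45.1%) with a median absolute effect of 0.36. Elements lower in Tg held 235, with 74 effects (31.5%) and a median of 0.23. Elements without a passing change held 654, with 226 effects (34.6%) and a median of 0.29. The share over all members tested was 35.5%. These classes rest on the same Tg counts as the effects, and a change of 1 allele alone enters both. The shares and medians are thus set in part by the choice of class. In both changed classes the direction was even, with 36 and 37 favouring the alternate allele.

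On the study's lists, which rest in part on these libraries so that the counts are not independent evidence, effects in Tg passed for 97 of 155 tested SNPs of the T2D list (62.6%) and for 133 of 229 of the caQTL list (58.1%). The single tested SNP on both, rs2943656 at IRS1, passed too. On neither list, 142 of 666 passed (21.3%), beside 35.5% of all members tested. The median absolute effect of those that passed was 0.35 on the T2D list, 0.27 on the caQTL list and 0.26 on neither. The reference allele was the higher in 80 of the 133 on the caQTL list and in 50 of the 97 on the T2D list. In T2D signals with a single candidate SNP in the study's tables, effects passed for 18 of 33 SNPs tested, with 2 candidates for 26 of 37 and with 3 for 17 of 21. The candidates, too, were picked in part from these libraries.

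Among loci known for insulin secretion, 26 SNPs had an active allele in Tg and 11 passed (42.3%), with the alternate allele higher in 7, beside 35.5% of all members tested. Their median absolute effect was 0.44, against 0.28 over all 373. SNPs were placed at these loci by locus name or by nearest gene. The nearest gene was given for SNPs to which the study gave allelic effects, in part from these libraries. Only the nearest gene places rs2215383 and rs11187139 here, so the share and the median are set in part by that choice. Beside rs2215383, rs13130845, rs4689398 and rs76846759 above, and named here as list members after their values were seen, the 11 included rs13405776 at THADA (chromosome 2, position 43739121), whose T allele was higher by 0.97 ± 0.18 (SD, n = 5, limma adjusted p = 4.93e-05). At C2CD4A and C2CD4B, genes that respond to inflammatory signals, rs7163757 (chromosome 15, position 62391608) had 0.36 ± 0.04 and rs4775466 (position 62397118) had -0.44 ± 0.08, so the higher allele was the alternate at the former and the reference at the latter. At IGF2BP2, an RNA-binding protein gene, rs7630554 (chromosome 3, position 185526062) had 0.36 ± 0.04 with log2 levels of 5.50 and 5.86. At SLC30A8, rs4300038 (chromosome 8, position 118217915) had -0.72 ± 0.03 in Tg and -0.94 ± 0.05 in DMSO, without overlap (adjusted p of the difference = 0.0552), in an element at log2 levels of 9.40 and 8.68. The smaller effects of rs11187139 near HHEX and rs2237897 at the potassium channel gene KCNQ1, -0.23 ± 0.19 and 0.19 ± 0.19, did not pass with the plasmid libraries as a group (adjusted p = 0.127 and 0.122).

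Among loci known for insulin action or adiposity, 8 of 20 SNPs tested passed (40.0%, beside 35.5% of all members tested), with the alternate allele higher in 6. The largest was rs832572 at MAP3K1, a gene of a kinase that activates JNK signalling (chromosome 5, position 56157201), whose C allele was higher by 0.86 ± 0.14 (SD, n = 5, limma adjusted p = 4.20e-05), from 0.67 to 1.00 over the libraries. At the same locus rs252900 (position 56185281) had 0.30 ± 0.20 and rs7728745 (position 56086666) 0.17 ± 0.01. A second FTO SNP, rs62033403 (chromosome 16, position 53822237), had 0.26 ± 0.05 in Tg and 0.25 ± 0.10 in DMSO, unlike rs11075992, whose DMSO effect was near 0. At TMEM18, rs7601028 (chromosome 2, position 642499) had -0.24 ± 0.08. The others were those of VEGFA and IRS1 above. The element of rs10239132 in GRB10, an adaptor protein gene, was among the most active, at log2 levels of 9.12 and 9.16, and its effect of 0.03 ± 0.01 did not pass (adjusted p = 0.593). The SNPs rs1108103 and rs2045438 were placed among these loci by nearest gene alone, and neither passed.

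By the kind of base change, effects passed for 131 of 348 C/T or G/A transitions tested (37.6%), for 53 of 128 other substitutions (41.4%) and for 4 of 15 insertions or deletions (26.7%), where the tables used give alleles, beside 35.5% of all members tested. Where they give none, 185 of 560 passed (33%). Alleles come in part from the study's tables of SNPs with allelic effects, so these shares are set in part by that choice. Bases beside the SNP are given for only 103 of the 6180 SNPs, and in 25 of those tested in Tg the alleles differ in whether they hold a CG at the SNP. Of these 25, 13 passed, as did 18 of the 29 tested whose alleles do not differ in a CG, and the allele with the CG was the higher in 10 and the lower in 3. The 10 included rs11075992 and rs113350503 above, rs12201218 with 0.99 ± 0.12 for its C allele and rs113189579 at PCNX2, with -0.43 ± 0.04, where the G allele was the higher. An exception was rs11038694 at CRY2, a gene of the circadian clock, where the allele without the CG was higher by 0.44 ± 0.06. No test was made on this small and unevenly covered set. The bases beside these SNPs come from the study's motif tables, made for SNPs to which it gave allelic effects, in part from these libraries. That choice fixes in part the shares that passed, so they are not a result about CG. Positions are given for 491 of the SNPs tested, and 31 of these, 11 with allelic effects, lie within 200 bp of another, so their elements share sequence and are not independent.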

How the data were processed

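Counts are the authors' sums of barcode reads per sequence and library, deposited before normalization, after barcodes of more than 1 sequence were discarded. The submitters' notes name DESeq2. The sources used here name no aligner. Both sequencing runs were summed. Reads carry no molecular identifiers. Columns of unknown sample number 0.

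Libraries were scaled by TMM. Activity in Tg used edgeR 4.0.16 (R 4.3.3) for sequences with at least 10 plasmid counts. Allelic effects used limma 3.58.1 on alternate minus reference log2((RNA + 1)/(mean plasmid + 1)) in each library against 0. The Tg minus DMSO difference used limma without pairing. P-values are two-sided, with Benjamini-Hochberg adjustment over all pairs tested. Scripts were tested on simulated data. Alternatives changed the pseudocount, denominator, tool (DESeq2 1.42.0 among them), scaling, filters, run and libraries.

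Named SNPs are the 12 largest effects in each direction with 1 sign in 5 of 5 libraries, SNPs that the paper names, the 6 with the smallest p of the difference among those that passed in Tg and not in DMSO, 3 near the median and 4 at the plasmid limit. A few of these SNPs are not reported here. SNPs, lists and rules were chosen with earlier results of these data known. Loci and hg19 positions are from the paper's tables, and the flanking bases from its motif and binding probe tables. The standard culture table and the authors' other assays were not analysed here.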

Additional observations from a re-analysis of the deposited data

Results flagged for a closer look

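Allelic effects differed between Tg and DMSO in the limma test for 10 of the named SNPs, of which 6 were named for the small p of that difference. The Tg minus DMSO difference on the log2 scale was 0.28 for rs76846759 at ADCY5, 0.31 for rs2049286 and -0.37 for rs2215383 between DGKB and AGMO (adjusted p = 0.0567, 0.0914 and 0.0800), all with a larger effect in Tg. For these 3 it passed under 4, 3 and 5 of the 14 alternatives run for the difference. It passed with edgeR's interaction and missed the threshold in 8 or 9 of the 10 fits that left out a library and when all pairs were tested (0.363, 0.453 and 0.428). With the replicate number as a block the adjusted p was 0.141 for rs76846759, 0.170 for rs2049286 and 0.0677 for rs2215383. The difference was 0.59 for rs11075992 in FTO and -0.59 for rs72775940, which passed under all 14. It was -0.35 for rs11832983 and -0.53 for rs2268791 in CFLAR, which passed under 12 and 11 of the 14, and -0.30 for rs9694326 and -0.23 for rs7974293, which passed under 8 and 7. At rs10811660 beside CDKN2B-AS1, without an active allele in Tg, it was 0.28 (adjusted p = 0.0807), with the larger effect in DMSO, and it passed under 3 of the 14, not with the block (0.128).

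A single Tg library stood far from the other 4 for 2 of the named SNPs tested. Tg replicate 1 gave -1.10 for rs10933640 in AGXT, where the others lay between -1.45 and -1.37, and -0.97 for rs2268791, where the others lay between -0.55 and -0.44. Chance sets apart about 1 in 20 such groups, and 57 groups were examined.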

How the results depend on the processing

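SNPs with allelic effects in Tg numbered 373. They numbered 99 when activity was called with scaling by total counts alone and 137 when all pairs were tested. Those with the alternate allele higher numbered 178, 50 and 64, and those with the reference allele higher 195, 49 and 73, in the same order. In the former setting 148 SNPs remained to be tested and in the latter 6180 shared the adjustment. Under the other settings the total was 283 to 391, with 283 when each Tg library was set over the plasmid library that bears its number (a replicate block of RNA and plasmid), 328 with edgeR's interaction and 305 with each SNP on its own spread. It was 306 to 343 without 1 Tg library and 342 to 365 without 1 plasmid library. The alternate allele was the higher in 144 to 165 and 161 to 176 of these, and the reference allele in 162 to 179 and 181 to 189.

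The test of the Tg minus DMSO difference was passed by 64 SNPs, by 18 to 57 without 1 library, 9 when all pairs were tested, 85 with edgeR's interaction and 10 with the replicate block of DMSO and Tg numbers. Deviations of DMSO and Tg libraries of the same number correlated at -0.0268 to 0.0173, and those of other numbers at -0.0429 to 0.0526, so the numbers were not taken to pair the cultures, which the study calls paired. Of the 42 named SNPs tested in Tg, 30 were still tested with activity called by total-count scaling and 36 with at least 500 plasmid counts. A SNP that a setting dropped from testing has no refit there and is not counted as failing. Of the 928 refits made of the 42, 0 reversed the direction, 44 no longer passed and 1 passed newly, and these touched 9 SNPs, rs28446029, rs947735, rs947734 and rs7974293 most often. The cause of these changes was not tested.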
